A study of Mus musculus with 12 samples.

Results

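The genes followed here, 9 in all, are genes of DNA repair and cell division in the first 60 Mb of mouse chromosome 4, read in RNA from serum of normal mice and of mice with colorectal cancer. They are Nbn, Fancg, Xpa, Rad23b, Rad54b, Smc2, Melk, Ccne2 and Orc3, taken by name, and they are 9 of the 53546 gene rows in each file. The labels give 6 normal and 6 colorectal cancer samples and call them biological replicates. The strain, age, tumour model and any treatment of the mice are not given here by any source, and the labels do not say whether the tumours were induced, grafted or genetic. Colorectal cancer replicates 5 and 6 are the same file and enter once, as replicate 6, so 6 normal and 5 colorectal cancer libraries were compared.

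Cells keep their DNA intact through several separate repair routes, some of which are needed in every cell and some mainly when DNA is being copied. Nbn, Fancg, Xpa and Rad23b are placed here as constitutive repair genes. Rad54b, Smc2, Melk and Ccne2 are placed as proliferation-linked, since their transcripts are known to rise in dividing cells. Orc3, a subunit of the origin recognition complex that marks where replication starts, stands apart from both sets. Most circulating blood cells do not divide, so proliferation genes are generally low in blood, while repair genes stay on.

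The labelled material is serum, which should hold few cells, but blood cell genes were present and unevenly so. Of 13 erythroid markers 4 were at 0 in every library, among them Hbb-bs and Alas2, and of 6 tested 3 were lower in colorectal cancer. The summed erythroid level ran from 524 to 904 TMM-scaled CPM (counts per 1000000 of the library total, corrected for composition) in normal serum and from 124 to 323 in colorectal cancer. Most of it was the 3 lower rows: Tspan33 (469 ± 104 and 161 ± 50.4 CPM), Tmod1 (188 and 58.7) and Hemgn (51.0 and 15.3). The other 3 tested were low and near level: Hba-a1 (4.89 and 4.81), Epb42 (4.90 and 5.11) and Gata1 (0.770 and 0.906). Neutrophil markers summed to 99.5 to 378 and 408 to 714, with 5 of 9 at 0 throughout, S100a8 and S100a9 included, and 0 of 2 tested called. Most of that sum was 1 row, Mmp8, a neutrophil collagenase, at 206 ± 119 and 558 ± 120 CPM (adjusted p = 0.134 by edgeR). Platelet markers summed to 599 to 1058 and 175 to 571, with 5 of 6 at 0 and Itga2b lower. T cell markers summed to 328 to 516 and 182 to 295, with 1 of 5 tested lower. That row, Cd3e, was most of the sum, at 377 ± 71.3 and 195 ± 47.2 CPM. B cell markers summed to 835 to 1345 and 962 to 1065. The part of these cell types in the values below was not tested, and in bulk RNA fewer cells of a type and less RNA per cell cannot be told apart. Library totals ran from 2889205 to 20774889 counts, and 6 libraries (2 normal, 4 colorectal cancer) held over 1000000 counts in the single row named Olfr648. Without that row the totals were 2885958 to 4089488 in normal serum and 3727908 to 7033966 in colorectal cancer. Rows above 0 numbered 10409 to 12384 in normal serum and 12426 to 15179 in colorectal cancer, with no overlap. The part of this depth in rows at or near 0 was not tested.

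Whether a row measures the gene it is named for is not established in these files. Elsewhere in the genome 42.7% of protein-coding rows were at 0 in every library, and in the first 60 Mb of chromosome 4 the share was 10.5% (34 of 324 rows). Of 11 genes that nearly every cell uses, looked up after the other results were seen, 6 were listed at 0 in every library, Actb and Ppia among them. Over all libraries Eef1a1 held 3 counts, B2m 9 and Rplp0 12, while Gapdh held 1099 and Tbp 4282. A row at 0 or with few counts is thus no sure measure of its gene's level. All 9 rows were above the low-count filter. Positions are those of GENCODE release M21 on mm10. Ccne2 lies at chr4:11191351-11204779, Rad54b at chr4:11558922-11615805, Nbn at chr4:15957925-15992589 and Orc3 at chr4:34570796-34614944. Fancg lies at chr4:43002343-43010506, Melk at chr4:44300876-44364675, Xpa at chr4:46155347-46196311, Smc2 at chr4:52439243-52488260 and Rad23b at chr4:55350043-55392237. All are annotated as protein-coding, and Orc3, Fancg and Xpa are on the minus strand.

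Proliferation genes are often controlled through short promoter motifs, and the RefSeq promoter table (GRCm38.p6, the build also called mm10) held 6 of the 9 genes: Orc3, Fancg, Melk, Xpa, Smc2 and Rad23b. The 250 bases before each start were searched on both strands for 2 cores bound by E2F factors (TTGGCGC and TTCCCGC), the CCAAT box, the cell cycle homology region (CHR, TTTGAA) and the GC box (GGGCGG). An E2F core can overlap a GC box by sharing bases, and did not in these 6. These windows are shown because they hold the matches that bear on the division between proliferation-linked and constitutive genes; the motif is in capitals and each reads 5′ to 3′ on the strand of its gene.
Orc3, E2F core, chr4:34614965-34614993, minus strand: catgcctccctTTCCCGCacgccccgcct
Fancg, E2F core, chr4:43010335-43010363, minus strand: ttcttttcagtTTCCCGCggaaccgtctc
Smc2, CHR read on the other strand, chr4:52439065-52439092, plus strand: cgctttccatgTTCAAAacggtatagtc
Smc2, CCAAT box, chr4:52439091-52439117, plus strand: tctcctaccttCCAATattaaaactat
Rad23b, CCAAT box, chr4:55349928-55349954, plus strand: tcgccccgcctCCAATtcccgggcgga
Melk, nearest GC box, chr4:44300851-44300878, plus strand: ttctcccggccCCGCCCcacctccctgg

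The core TTCCCGC was found in Orc3, 40 bases before the RefSeq start, and in Fancg, 51 bases before it, against 3.82% of 32851 promoters. The core TTGGCGC was in none of the 6 and in 1.97% of all promoters. The Smc2 promoter was the one of the 6 with a CHR, which 16.0% of promoters hold, and its CCAAT box lay 119 bases before the start. CCAAT boxes were in Smc2, Rad23b and Xpa (33.8% of all promoters) and GC boxes in Melk, Orc3, Rad23b and Smc2 (32.7%). Melk held 3 GC boxes and none of the other motifs, and Rad23b had the highest GC content at 70.8%, against a median of 52.4%. Of the proliferation-linked genes Melk and Smc2 were in the promoter table, and Rad54b and Ccne2 could not be searched. Among the 6 searched, by the RefSeq starts, the letters did not divide along the sets: an E2F core stood before a gene placed as constitutive, Fancg. In GENCODE M21 this minus-strand gene begins farther out, at 43010506, so by that annotation the core lies inside Fancg. A match is a description of these letters only.

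The labels set the serum of animals with the tumour against that of normal ones. Of the 9 rows 0 passed in edgeR (quasi-likelihood, two-sided, Benjamini-Hochberg adjusted over 9565 rows, threshold 0.05), where 2.02% of all tested rows were called, 0.565% higher and 1.45% lower. With no adjustment 1 of the 9 rows, Orc3, had a p under 0.05 by edgeR. Of all 9565 tested rows 547 higher and 540 lower ones did so too, so this does not set Orc3 apart. DESeq2 called 0 of the 9, with no adjusted p given for 2. In 0 of 9 were the groups without overlap, against 3.64% of tested rows, of which those higher in colorectal cancer were 1.54%. Log2 fold changes (colorectal cancer over normal) were above 0 in 5 and below 0 in 4, with a median of 0.04, the same to 2 decimals as the median of all tested rows, 0.04.

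**Figure D1:**
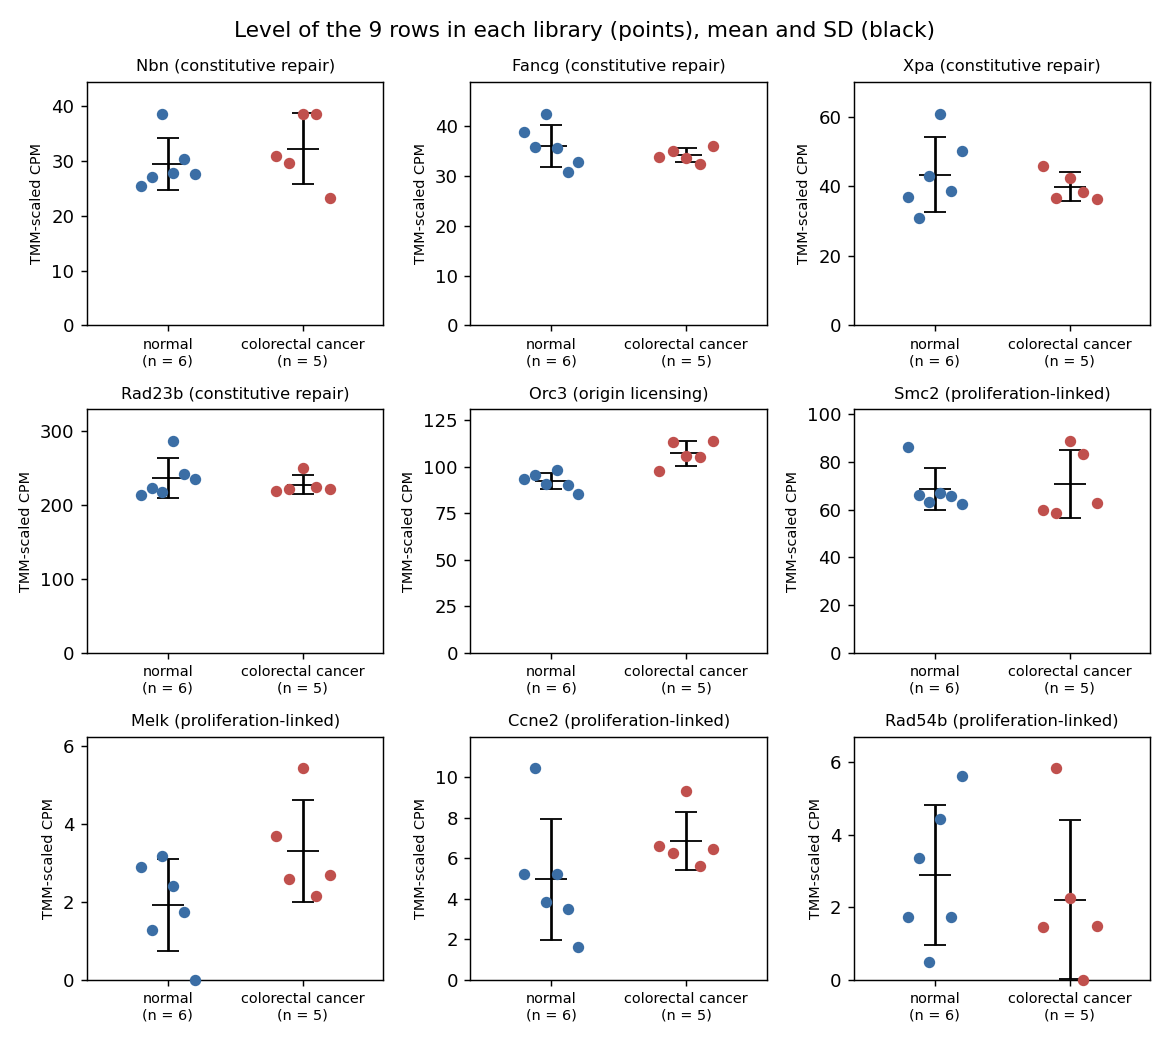
Level of each of the 9 rows in TMM-scaled CPM (vertical axis, from 0, its own scale in each panel) in 6 normal and 5 colorectal cancer libraries, with the mean and SD in black. Orc3 is the row whose groups come closest to parting, with colorectal cancer from 97.9 to 114 and normal from 85.5 to 98.1.

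Among the constitutive repair genes, Nbn encodes nibrin, the subunit that brings the MRE11-RAD50 nuclease complex to double-strand breaks. Its normal libraries ran from 25.5 (median 27.7) to 38.5 CPM, and colorectal cancer replicates 1, 2, 3, 4 and 6 stood at 31.0, 29.7, 38.5, 38.5 and 23.3. Replicate 6 was the lowest of all 11 libraries and replicates 3 and 4 stood level with the highest normal one, so the groups overlapped. The means were 29.5 ± 4.70 and 32.2 ± 6.47 CPM (SD, n = 6 and 5), a log2 fold change of 0.12 (SE 0.15, 95% interval -0.21 to 0.46, adjusted p = 0.881 by edgeR). With 1 library left out it ran from 0.048 (without colorectal cancer replicate 4) to 0.22 (without replicate 6). The n, the order of the cancer replicates and the test are the same for every row below, and intervals are not adjusted for the number of rows.

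Fancg encodes a subunit of the Fanconi anaemia core complex, which starts the repair of crosslinked DNA strands. It ran from 30.8 (median 35.7) to 42.5 CPM in normal serum, and the 5 colorectal cancer libraries lay close together at 33.8, 35.1, 33.6, 32.4 and 36.1. All 5 lay inside the normal range. The means were 36.0 ± 4.17 and 34.2 ± 1.44 CPM, with a log2 fold change of -0.08 (SE 0.10, 95% interval -0.30 to 0.15, adjusted p = 0.899 by edgeR). Leaving out normal replicate 5 gave -0.12, and leaving out normal replicate 3 gave -0.033. The interval spans folds of 0.813 to 1.11.

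Xpa encodes a damage-verifying protein of nucleotide excision repair, the route that removes bulky lesions such as those made by ultraviolet light. Normal libraries ran from 30.8 (median 40.9) to 60.8 CPM, the widest relative spread of the 4 constitutive repair rows at a coefficient of variation of 24.6%. Colorectal cancer libraries stood at 45.8, 36.8, 42.5, 38.3 and 36.4, all inside the normal range. The means were 43.4 ± 10.7 and 39.96 ± 4.07 CPM, with a log2 fold change of -0.12 (SE 0.16, 95% interval -0.46 to 0.23, adjusted p = 0.892 by edgeR). It was -0.0033 without normal replicate 4 and -0.21 without normal replicate 2. Exons of Xpa share 77 bases with those of Ncbp1 on the opposite strand, which held 15218 counts over the 11 libraries against 3951 for Xpa. No source used here gives the strand setting of the counting, so reads in the shared bases cannot be assigned. Ncbp1 itself stood at 162 ± 12.7 and 154 ± 6.07 CPM (adjusted p = 0.837 by edgeR).

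Rad23b encodes a ubiquitin-binding partner of the lesion sensor XPC that also carries proteins to the proteasome, and it was the most abundant of the 9 rows. It ran from 213 (median 229) to 286 CPM in normal serum and stood at 218, 221, 249, 223 and 221 in colorectal cancer. The other 4 cancer libraries lay within a few CPM of each other and replicate 3 stood above them, still inside the normal range. The means were 236 ± 26.7 and 227 ± 12.8 CPM, with a log2 fold change of -0.06 (SE 0.09, 95% interval -0.25 to 0.14, adjusted p = 0.916 by edgeR). Folds below 0.841 or above 1.10 lie outside this interval, which is that of the TMM-scaled fit. The direction is not fixed: without normal replicate 4, the highest library, the log2 fold change was 0.0027.

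Orc3, the origin recognition complex subunit, had the narrowest interval of the 9 rows. It ran from 85.5 (median 91.9) to 98.1 CPM in normal serum and stood at 97.9, 113, 106, 105 and 114 in colorectal cancer. In colorectal cancer 4 of 5 libraries lay above all 6 normal ones, and replicate 1 fell just under the highest normal library, replicate 4. The means were 92.3 ± 4.48 and 107 ± 6.60 CPM, with a log2 fold change of 0.22 (SE 0.08, 95% interval 0.05 to 0.38), and the difference did not pass over all rows (adjusted p = 0.235 by edgeR, 0.0745 by DESeq2). Among libraries with over 1000000 Olfr648 counts, 2 normal ones stood at 90.5 and 95.8 and 4 colorectal cancer ones from 97.9 to 114. Among the others, 4 normal ones ran from 85.5 to 98.1 and the single colorectal cancer one stood at 106. All colorectal cancer libraries lay above all normal ones within both sets in 1 of the 9 rows, Orc3, and in 4.1% of tested rows. The second set holds 1 colorectal cancer library only, and there 5 of the 9 rows and 20.3% of tested rows did so. This division is given for the row closest to parting and is no test of its difference. With this division as a covariate the log2 fold change was 0.21 (adjusted p = 0.488 by edgeR).

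**Figure D2:**
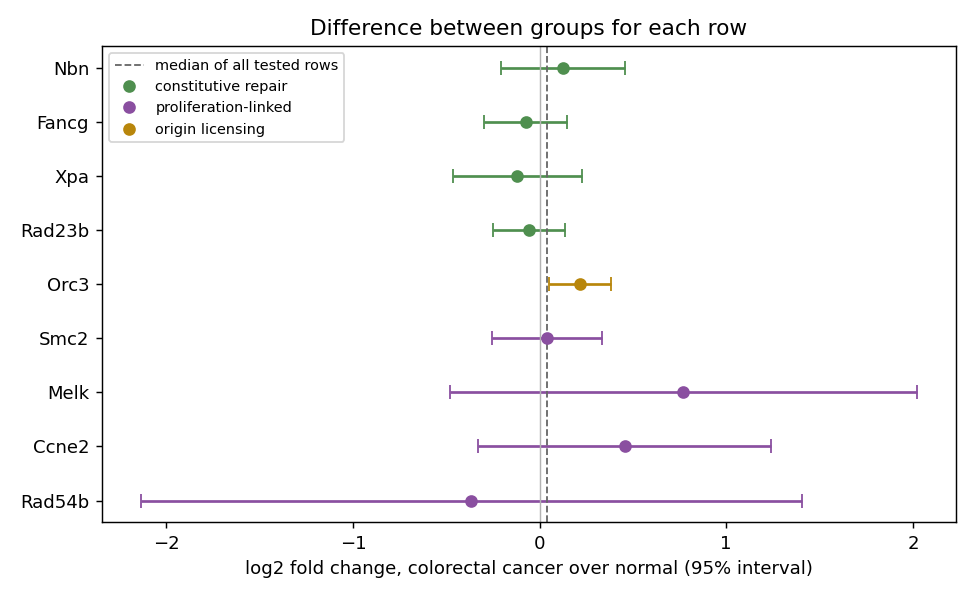
Log2 fold change of each row, colorectal cancer over normal (horizontal axis), with its 95% interval, coloured by set; the dashed line is the median of all tested rows at 0.04. The 4 constitutive repair rows and Smc2 sit within 0.13 of 0 with short intervals, and Melk, Ccne2 and Rad54b have intervals that reach beyond 1.2 log2 units on at least one side.

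Of the proliferation-linked genes, Smc2 encodes a core subunit of condensin, which compacts chromosomes for mitosis, and it alone of these 4 was well counted. It ran from 62.5 (median 66.1) to 86.4 CPM in normal serum and stood at 59.7, 58.5, 88.7, 83.2 and 62.8 in colorectal cancer. The cancer libraries fell on both sides of the normal ones, 2 below all 6 and 1 above all 6. The means were 68.5 ± 8.92 and 70.6 ± 14.2 CPM, with a log2 fold change of 0.04 (SE 0.14, 95% interval -0.25 to 0.34, adjusted p = 0.960 by edgeR). With 1 library left out it ran from -0.049 (without colorectal cancer replicate 3) to 0.12 (without its replicate 2).

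Ccne2 encodes cyclin E2, which activates CDK2 at the entry into S phase. Normal libraries ran from 1.61 (median 4.51) to 10.4 CPM, and colorectal cancer libraries stood at 6.60, 6.26, 9.33, 5.59 and 6.46. All 5 cancer libraries lay above the normal median and below normal replicate 2, the highest of all. The means were 4.96 ± 2.99 and 6.85 ± 1.44 CPM, with a log2 fold change of 0.46 (SE 0.36, 95% interval -0.33 to 1.24, adjusted p = 0.766 by edgeR). It was 0.81 without normal replicate 2 and 0.28 without normal replicate 6. Exons of Ccne2 share 609 bases with those of Ints8 on the opposite strand, a gene with 11426 counts against 588 for Ccne2, and reads in the shared bases cannot be assigned here either. The means of Ints8 were 128 ± 13.6 and 113 ± 11.3 CPM (edgeR adjusted p = 0.563).

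Melk encodes a mitotic kinase of the AMPK family that is used as a marker of dividing cells. It was not detected in normal replicate 6, where 0 counts allow up to 0.603 CPM (3 counts, counting error only), and the normal libraries had a median of 2.08 and a maximum of 3.18. Colorectal cancer libraries stood at 3.69, 2.59, 5.42, 2.15 and 2.70, all above the normal median and 2 of them above every normal library. The means were 1.92 ± 1.18 and 3.31 ± 1.31 CPM, with a log2 fold change of 0.77 (SE 0.58, 95% interval -0.48 to 2.02, adjusted p = 0.741 by edgeR). The whole row held 69 counts in the 6 normal and 190 in the 5 colorectal cancer libraries. The log2 fold change was 0.51 without normal replicate 6.

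Rad54b encodes a DNA translocase of homologous recombination related to Rad54l. Normal libraries ran from 0.477 (median 2.55) to 5.63 CPM and colorectal cancer libraries stood at 1.46, 5.83, 2.27, 0 and 1.49. Cancer replicate 4 held 0 counts, which allows up to 0.230 CPM, and replicate 2 held 97, so the highest and the lowest library of the study were both from colorectal cancer. The means were 2.90 ± 1.93 and 2.21 ± 2.19 CPM, with a log2 fold change of -0.37 (SE 0.82, 95% interval -2.14 to 1.41, adjusted p = 0.945 by edgeR). Single libraries moved it widely: with 1 left out it ran from -1.13 (without colorectal cancer replicate 2) to -0.045 (without replicate 4), and it was -0.071 without normal replicate 6. Its exons share 2068 bases with those of Fsbp on the same strand, which held 60 counts against 248 for Rad54b. Reads in those bases cannot be divided between them.

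Per kilobase of exon, the levels in normal serum fell into 2 tiers. Rad23b stood highest at 41.1 ± 4.65 CPM per kb, then Xpa at 22.9 ± 5.63, and neither overlapped the next row in any library of the group. Orc3 at 15.2 ± 0.736, Smc2 at 12.5 ± 1.63, Nbn at 11.6 ± 1.86 and Fancg at 9.50 ± 1.10 followed, and each overlapped its neighbour in this order. After a gap came Ccne2 at 1.42 ± 0.856, Melk at 0.646 ± 0.395 and Rad54b at 0.501 ± 0.333 CPM per kb, which again overlapped their neighbours. The same steps with and without overlap held among the colorectal cancer libraries. All 4 constitutive repair rows thus stood in the upper tier, and of the proliferation-linked rows Smc2 did too.

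**Figure D3:**
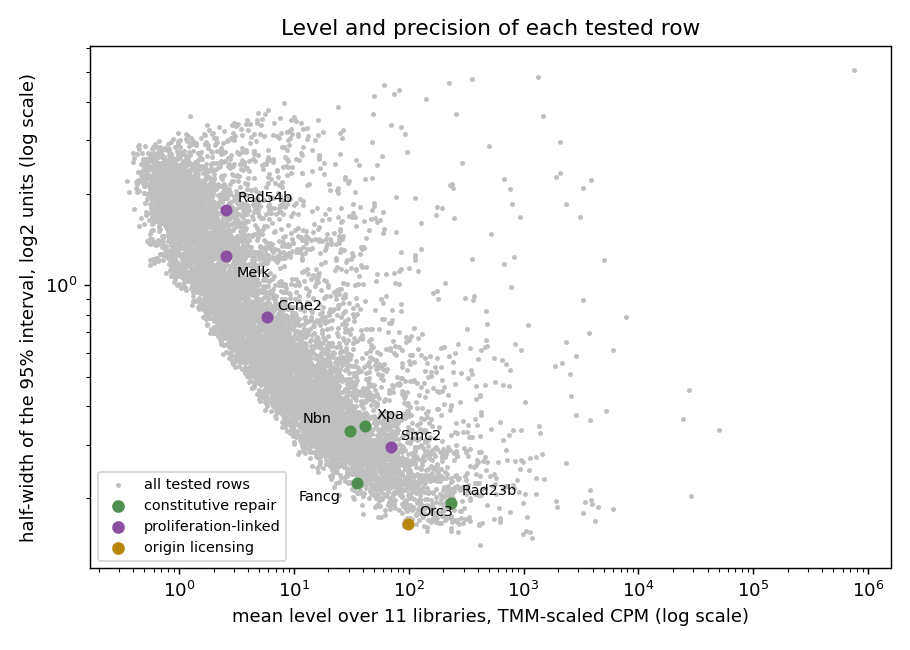
Mean level of every tested row in TMM-scaled CPM (horizontal, log scale) against the half-width of its 95% interval in log2 units (vertical, log scale), with the 9 rows coloured by set. The 6 rows of the upper tier lie low, at half-widths of 0.17 to 0.34, and Ccne2, Melk and Rad54b lie at 0.78, 1.25 and 1.77.

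Under TMM scaling the rows differed in how closely a difference was measured. The half-width of the 95% interval was 0.17 log2 units for Orc3, 0.19 for Rad23b and 0.22 for Fancg, narrower than 99.8%, 98.5% and 96.5% of all tested rows. For Smc2, Nbn and Xpa it was 0.29, 0.33 and 0.34. For Ccne2, Melk and Rad54b it was 0.78, 1.25 and 1.77, against a median of 0.73 over all tested rows. These intervals leave out the choice of scaling. Scaled by totals alone without the Olfr648 row, Orc3 (0.61), Rad23b (0.34), Fancg (0.33), Smc2 (0.44), Nbn (0.52) and Xpa (0.28) lay outside them. Ccne2, Melk and Rad54b stayed inside theirs. The coefficient of variation beyond counting error, as edgeR estimates it, ran from 16.4% to 22.0% in the constitutive repair rows. It was 15.5% in Orc3 and 20.4% in Smc2, and 41.6%, 55.1% and 91.3% in Ccne2, Melk and Rad54b.

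Set against each other, the proliferation-linked rows showed 3 log2 fold changes above 0 and 1 below (median 0.25), and the constitutive repair rows 1 above and 3 below (median -0.07). The test was passed by 0 of 4 in either set. In each library the mean log2(CPM + 0.5) of the constitutive rows was subtracted from that of the proliferation-linked rows. The difference ran from -3.68 (median -3.05) to -2.61 in normal serum and was -2.90, -2.54, -2.49, -3.50 and -2.83 in colorectal cancer replicates 1, 2, 3, 4 and 6. Its mean was -3.11 ± 0.42 in normal serum and -2.85 ± 0.41 in colorectal cancer, a shift of 0.26 that is smaller than the SD within either group. Cancer replicate 4, where Rad54b held 0 counts, was the lowest of its group, and 2 cancer libraries lay above all normal ones. Smc2 made up most of the summed level, and in summed CPM the proliferation-linked rows came to 23.0% ± 4.38 of the constitutive ones in normal serum and 24.8% ± 3.21 in colorectal cancer. No test was made of this score, since its members were chosen with earlier results known.

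**Figure D4:**
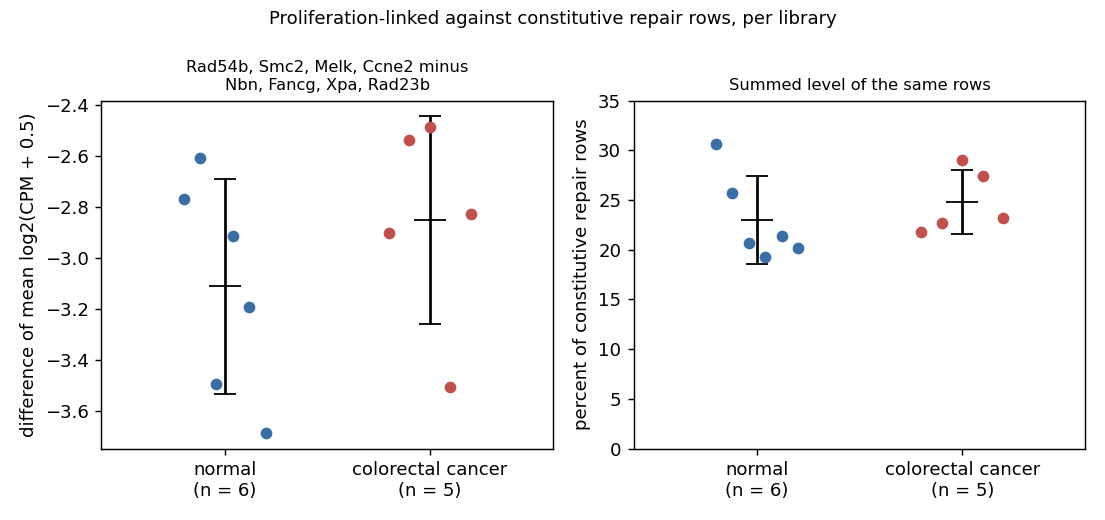
Proliferation-linked against constitutive repair rows in each library: left, difference of mean log2(CPM + 0.5); right, summed CPM of the proliferation-linked rows as a percentage of the constitutive rows (axis from 0), with mean and SD in black. The groups overlap in both panels, with means of -3.11 and -2.85 on the left and 23.0% and 24.8% on the right.

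The 9 rows did not vary together across libraries. Of 36 pairs, 17 had a Pearson correlation of log2 levels above 0, with a median of -0.02 over 11 libraries. The strongest pairs were Xpa with Rad23b, both of nucleotide excision repair (r = 0.70, permutation p = 0.0225; Spearman rho 0.35, permutation p = 0.286), and Melk with Ccne2, both of cell division (r = 0.69, permutation p = 0.0373; rho 0.35, permutation p = 0.289). Ccne2 with Orc3 had r = 0.64 (permutation p = 0.0305) and rho 0.67 (permutation p = 0.0278). Adjusted over the 36 pairs, the permutation p was 0.447 for each of the 3 Pearson correlations and 0.742 for each Spearman one. Without the 2 libraries farthest from the median, r was 0.16 for Xpa with Rad23b, -0.31 for Melk with Ccne2 and 0.70 for Ccne2 with Orc3. Leaving out the farthest libraries narrows the range of the values, so it cannot show which libraries a correlation rests on. Within normal and colorectal cancer serum, r was 0.76 and 0.25 for Xpa with Rad23b, 0.56 and 0.95 for Melk with Ccne2, and 0.85 and -0.13 for Ccne2 with Orc3.

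The tested rows most like each of the 9 across the 11 libraries lay on other chromosomes. Smc2 was most like Bpifa6 (r = 0.93), Melk most like Sos2 (0.93), Orc3 most like Fendrr (0.93) and Rad23b most like Anxa6 (0.92). Nbn was most like Oxt (0.88), Rad54b most like Pold2 (0.90), Fancg most like Gm9195 (0.90), Xpa most like 4930444A19Rik (0.90) and Ccne2 most like Hsbp1l1 (0.89). Each is the highest of all other tested rows over few libraries, and several hold few counts, such as Gm9195 with 84 and Hsbp1l1 with 71 in all.

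The 9 rows were also set beside the rest of their region. Of 260 tested rows in the first 60 Mb of chromosome 4, 1 was higher and 14 lower in colorectal cancer, or 5.77% called. Over all tested rows 2.02% were called, 0.565% higher and 1.45% lower. The median log2 fold change of the 260 was -0.01. None of the 15 called rows is among the 9.

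Other genes of the same pathways were read from 7 lists with 125 distinct genes, members included, of which 124 had a row and 68 were tested. By edgeR 2 of the 68 were higher in colorectal cancer and 1 was lower, and by DESeq2 3 and 1. Without adjustment (p under 0.05 by edgeR) 7 of the 68 were higher and 4 lower, against 547 and 540 of all 9565 tested rows. Of the log2 fold changes of the 68, 34 were above 0 and 34 below, and 4.41% of the 68 were called against 2.02% of all tested rows. These calls include Palb2, which passed the low-count filter only through its colorectal cancer libraries. The lists were also chosen with earlier results known, so the 2 shares are a description and no test. Rows listed at 0 in every library numbered 29. Among them was Mre11a, the nuclease partner of Nbn. Ccne1, the other E cyclin, and the mitotic genes Mki67, Cdk1, Aurka, Aurkb and Plk1 were also listed at 0.

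Of double-strand break repair genes 11 of 23 rows were tested and 1 was higher, Palb2, which links BRCA1 to BRCA2. Palb2 held 0 counts in all 6 normal libraries and 7 to 19 in each colorectal cancer one, 70 in all. Its mean of 1.16 ± 0.444 CPM in colorectal cancer was 13.8-fold above a floor of 3 counts over the normal group, 0.0841 CPM. The adjusted p was 0.0296 by edgeR. That floor allows for counting error only and is no lower bound on the fold between animals. In single normal libraries 3 counts come to 0.373 to 0.604 CPM. The row passed the low-count filter only through its colorectal cancer libraries. The call was lost when colorectal cancer replicate 3 was left out (edgeR adjusted p = 0.0575) and with no low-count filter (0.0521), and in 6 of the 11 fits with a library left out the row fell under the filter. Among the rest, Brca2, a gene of homologous recombination, stood at 16.5 ± 1.77 and 17.7 ± 3.71 CPM (adjusted p = 0.910 by edgeR).

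Of nucleotide excision repair genes 13 of 19 rows were tested and 1 was lower, Gtf2h5, a small subunit of the TFIIH complex that opens DNA at a lesion. It ran from 44.7 (median 60.4) to 76.1 CPM in normal serum and from 16.1 (median 23.4) to 32.9 in colorectal cancer, with no overlap. Its means were 59.3 ± 11.5 and 24.8 ± 6.74 CPM, a log2 fold change of -1.26 (SE 0.19, adjusted p = 0.00656 by edgeR), and its call held without each library in turn. With the replicate number as a block the log2 fold change was -1.34 and the call was lost (adjusted p = 0.0548 by edgeR). Xpc, the partner of Rad23b, stood at 38.6 ± 9.62 and 42.0 ± 5.83 CPM (adjusted p = 0.902 by edgeR), so neither gene of the pair was called.

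Of G1/S control genes 10 of 16 rows were tested and 1 was higher, E2f2, a transcription factor that drives entry into S phase and also lies on chromosome 4, at chr4:136172394-136196057. It ran from 74.4 (median 82.0) to 87.8 CPM in normal serum and from 99.6 (median 110.05) to 129 in colorectal cancer, with no overlap. The log2 fold change was 0.46 (SE 0.09, adjusted p = 0.0170 by edgeR). Leaving out colorectal cancer replicate 1 or 6 lost the call (adjusted p = 0.0515 and 0.0506 by edgeR), as did the Olfr648 division as a covariate (0.0888). The log2 fold change was 0.44, 0.41 and 0.44 in these fits, and 0.45 with the replicate number as a block, where the call was lost too (adjusted p = 0.195 by edgeR). Of 6 tested erythroid markers 3 were lower in colorectal cancer, as given above, and their part in these 3 calls was not tested.

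In the other 4 lists 0 rows passed. Origin licensing, the list of Orc3, had 8 of 15 rows tested with a median log2 fold change of 0.21 and 6 of 8 above 0, and its most abundant other member, the helicase subunit Mcm7, stood at 57.5 ± 9.30 and 63.9 ± 10.1 CPM. Condensin and cohesin genes had 12 of 15 tested with a median of -0.0044, and Ncapd2, a partner of Smc2 in condensin, stood at 42.4 ± 7.28 and 47.0 ± 7.28. Mitosis and proliferation genes had 8 of 21 tested with a median of -0.06, and Top2a, the DNA untangling enzyme of dividing cells, stood at 26.7 ± 2.95 and 23.9 ± 3.50. Fanconi anaemia genes had 6 of 15 tested with a median of -0.17, and Fancd2, which the core complex modifies, stood at 42.0 ± 11.9 and 35.1 ± 19.2 CPM. The adjusted p of these 4 genes lay between 0.778 (Top2a) and 0.946 (Fancd2) by edgeR.

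**Figure D5:**
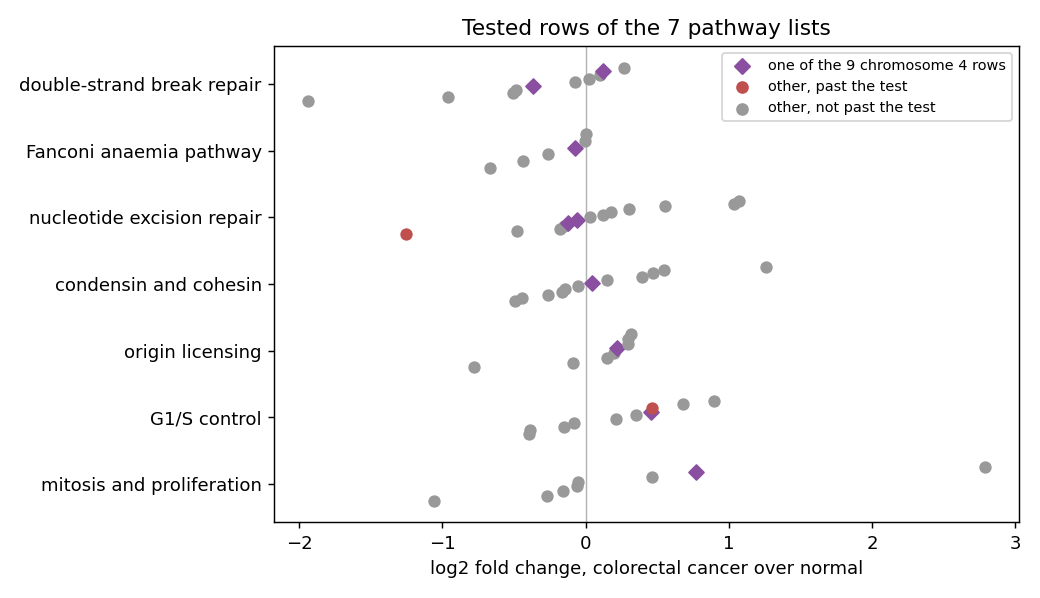
Log2 fold change (horizontal axis, colorectal cancer over normal) of every tested row of the 7 pathway lists, with the 9 chromosome 4 rows as diamonds, and rows past the test in red. Palb2, at 0 in all normal libraries, is left out since its fold cannot be measured. Gtf2h5 at -1.26 and E2f2 at 0.46 are the red points.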

How the data were processed

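RNA was extracted from mouse serum with TRIzol and made into stranded total RNA libraries, per the labels' protocols. The deposited files hold whole-number counts per gene symbol, read as raw counts because they are whole and differ in total. Trim Galore, HISAT2, StringTie and mm10 are listed, without role or order, in the submitters' processing notes. No source used here gives the counting step, its strand setting or its annotation. Each file has 53546 rows, and 0 rows name no gene. Depth was 2889205 to 20774889 counts per library.

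Counts were filtered with filterByExpr, scaled by TMM, and compared between groups in edgeR 4.0.16 under R 4.3.3 (glmQLFit with robust = TRUE, then glmQLFTest, no covariate) over 9565 rows at an adjusted p of 0.05. DESeq2 1.42.0 was an alternative. CPM are TMM-scaled, and per-kb levels use merged exon lengths of GENCODE M21. Correlations used log2(CPM + 0.5), with permutation tests of 100000 resamples. The procedure was checked on simulated data. P-values measure the spread between these samples.

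The 9 members and all lists were chosen with earlier results of these data known. Named genes were the members, list genes past the test or, where none passed, the most abundant other one, the row most like each member, and genes overlapping a member. Chosen after their values were seen were Mre11a, Ccne1, the mitotic genes at 0, Brca2, Xpc, Brca1, Trp53bp1, Kif11, 11 housekeeping genes and single marker genes. Alternatives were other size factors, DESeq2, other filters, a replicate block, both copies of the repeated file, leaving out each library, and other treatments of the Olfr648 row; leaving Smc2 out of its set was chosen after seeing the data.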

Additional observations from a re-analysis of the deposited data

Results flagged for a closer look

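Among 20 groups of values (the 9 rows and the difference between the sets, in each group), 3 had a library far from the others for the size of its group, and chance marks about 1 in 20. Rad23b in colorectal cancer replicate 3 stood at 249 CPM, apart from the other 4 cancer libraries. Ccne2 stood at 9.33 CPM in the same library. Smc2 in normal replicate 1 stood at 86.4 CPM, above the other 5 normal libraries. Colorectal cancer replicate 3 is also the one cancer library without over 1000000 counts in the Olfr648 row. It held the highest cancer level of Melk, Ccne2, Smc2 and Rad23b, and whether these go together was not tested.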

How the results depend on the processing

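Over 20 alternative settings the 9 rows gave 175 values, of which 164 kept direction and side of the threshold, 9 turned direction and 3 passed the test, 1 of these with its direction turned. With the Olfr648 row left out and libraries scaled by totals alone, the median of all rows moved from 0.04 to 0.43 and that of the 9 rows to 0.44. There Nbn (0.52) and Orc3 (0.61) were called, Rad23b turned to 0.34 and was called, and Fancg (0.33), Xpa (0.28) and Rad54b (0.062) turned without a call, while 1383 rows were higher. Rad23b also turned without normal replicate 4 (0.0027, lowest -0.089 without colorectal cancer replicate 3), and Smc2 without colorectal cancer replicate 3 (-0.049) or 4 (-0.03). With the Olfr648 division as a covariate Xpa (0.0063) and Rad23b (0.016) turned, and 13 rows were higher and 68 lower. All rows gave 54 higher and 139 lower calls, 159 and 224 by DESeq2, and 112 higher with the repeated file kept. With 1 library left out, 16 to 67 rows were higher and 89 to 139 lower: 20 higher without normal replicate 2, 35 without 6, 16 without colorectal cancer replicate 1 or 6, 27 without its replicate 2, and 20 (89 lower) without its replicate 4. The median of the 9 then ran from -0.05 to 0.12 and the shift between the sets from 0.14 to 0.42. The shift was 0.18 to 0.33 with other pseudocounts, Fancg or Orc3 moved, or Smc2 left out. Same-numbered samples are not stated to share an animal, and their deviations correlated at -0.09 to 0.04, with 1 of 5 closest to its own number. With the replicate number as a block 6 rows were higher and 59 lower, no member changed its call, and Palb2, E2f2 and Gtf2h5 lost theirs (adjusted p = 0.428, 0.195 and 0.0548 by edgeR); Palb2 also lost it with the Olfr648 division as a covariate (0.124). DESeq2 gave no adjusted p for Rad54b and Melk, and a mean of 10 CPM leaves out both and Ccne2. The cause of these changes was not tested. Counts were fewest for Ccne2, Melk and Rad54b, with 588, 259 and 248 over all libraries, and their spread beyond counting error was the widest of the 9, 41.6%, 55.1% and 91.3%; the part of each in their intervals was not tested.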

Other observations

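Brca1, Trp53bp1 and Kif11, 3 repair and division rows of the pathway lists, were very uneven between libraries of 1 group, and were picked after their values were seen. Brca1, the recombination gene mutated in familial breast cancer, stood at 234 CPM in normal replicate 4 and between 10.7 and 20.2 in the other 5 normal libraries, while colorectal cancer ran from 11.2 to 14.8. Trp53bp1, which encodes a break-binding protein, held 0 counts in normal replicate 2 and 32.8 to 86.1 CPM in the other normal libraries, against 12.5 to 33.4 in colorectal cancer. Kif11, a mitotic motor, held 0 counts in 4 normal libraries and in colorectal cancer replicate 3, and 58 and 62 counts in cancer replicates 1 and 6. None of the 3 passed the test (adjusted p = 0.471, 0.793 and 0.348 by edgeR).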
